A study of Mus musculus with 10 samples.

Results

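Levels of 10 transcripts for proteins that sit between cells and the structural matrix were described in hearts of 1 week old mice: Postn, Tnc, Tnxb, Fn1, Sparc, Cthrc1, Thbs1, Thbs2, Thbs3 and Thbs4. They were taken by gene name, but with earlier results of these data known, so they are not a blind choice. All 10 were among the 16440 genes held by all 3 deposited tables (17575 genes were in at least 1 table). RNA of whole cardiac tissue had been sequenced from 10 male mice. The 3 Ft1ko mice came from crosses of the Ft1 floxed line (Ft1F) with CMV-cre mice, so Ft1, the gene Aktip, was lost throughout the body. The 4 Ft1sm22ko mice came from crosses of Ft1F with sm22-cre mice, in which the Tagln promoter drives the recombinase, so deletion is limited to cells that have used that promoter, vascular smooth muscle above all, although Tagln is also used for a time in embryonic heart muscle. The 3 WT mice carried neither change as far as the labels say.

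Matricellular proteins are secreted into the matrix, where they change how cells attach, migrate and respond to growth factors rather than bearing load. Fibronectin is the fibrillar glycoprotein on which collagens are laid down, and thrombospondins bind matrix, cell surface receptors and latent Tgf beta. In the heart most of these proteins are made by fibroblasts and valve cells, are plentiful while the organ grows, decline afterwards and return after injury.

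Each deposited table gives, for 1 pair of genotypes, the mean normalized count of a gene over the hearts of both: 6 hearts for Ft1ko with WT, 7 for Ft1sm22ko with WT and 7 for Ft1sm22ko with Ft1ko. From the 3 pair means the mean of each genotype was solved for every gene. Values per heart were not used here, so no level below has an SD or a test, a mean may rest on 1 heart, and every difference is a description. The tables had been normalized separately, and a common scale had to be set. On the median-gene scale the median gene had the same level in the 3 genotypes. On the single-group scale the tables were joined by genes found in 1 genotype alone. The plan was to use the single-group scale if each genotype had enough such genes and the median-gene scale otherwise. Too few were found, so the median-gene scale became the main one, but it put the WT level of 91 of 13748 genes at or below 0, which cannot be. The single-group scale did so for 0 genes in WT, although it put 1 gene at or below 0 in Ft1ko. The single-group value, with no minimum on the number of genes, a choice made after the data were seen, is therefore given beside it. On the single-group scale the median gene with a mean of at least 100 was at -0.17 (log2) in Ft1ko and -0.08 in Ft1sm22ko relative to WT, with 0.08 between the mutants (Ft1sm22ko over Ft1ko), and ratios on that scale are read against these shifts. Levels are normalized counts on the scale of the Ft1ko and WT table.

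Aktip was checked first. Its level was 189.6 in Ft1ko, 283.2 in Ft1sm22ko and 648.9 in WT hearts on the median-gene scale, a ratio of 0.292 for Ft1ko over WT and 0.436 for Ft1sm22ko over WT (0.253 and 0.430 on the single-group scale). Both mutants were below WT, with the lower level in Ft1ko, and reads on exons outside the deleted part count toward this gene as well.

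Of the 10 genes, 8 were at least 2-fold higher in Ft1ko than in WT hearts and none was 2-fold lower. Among all 13748 genes with a mean of at least 10 in every table, 22.8% were 2-fold higher and 13.8% were 2-fold lower in that comparison (19.2% higher on the single-group scale, where the same 8 genes passed). In Ft1sm22ko over WT 8 genes were again 2-fold higher, against 16.6% of all genes, and 0 were lower, against 10.3%. On the single-group scale Sparc dropped out and 7 remained, against 13.1% of all genes. The median of the 10 ratios was 6.71 in Ft1ko over WT and 5.41 in Ft1sm22ko over WT (5.02 and 4.20 on the single-group scale). On the log2 scale these medians were 2.75 and 2.44, beside 0.13 and 0.07 for all genes. Both comparisons share the WT hearts. Between the mutants, 1 gene, Tnc, was at least 2-fold lower in Ft1sm22ko than in Ft1ko, against 9.38% of all genes (8.94% on the single-group scale), and 0 were 2-fold higher, against 4.29%. Tnxb was the gene with the smallest difference from WT in both mutants.

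**Figure D1:**
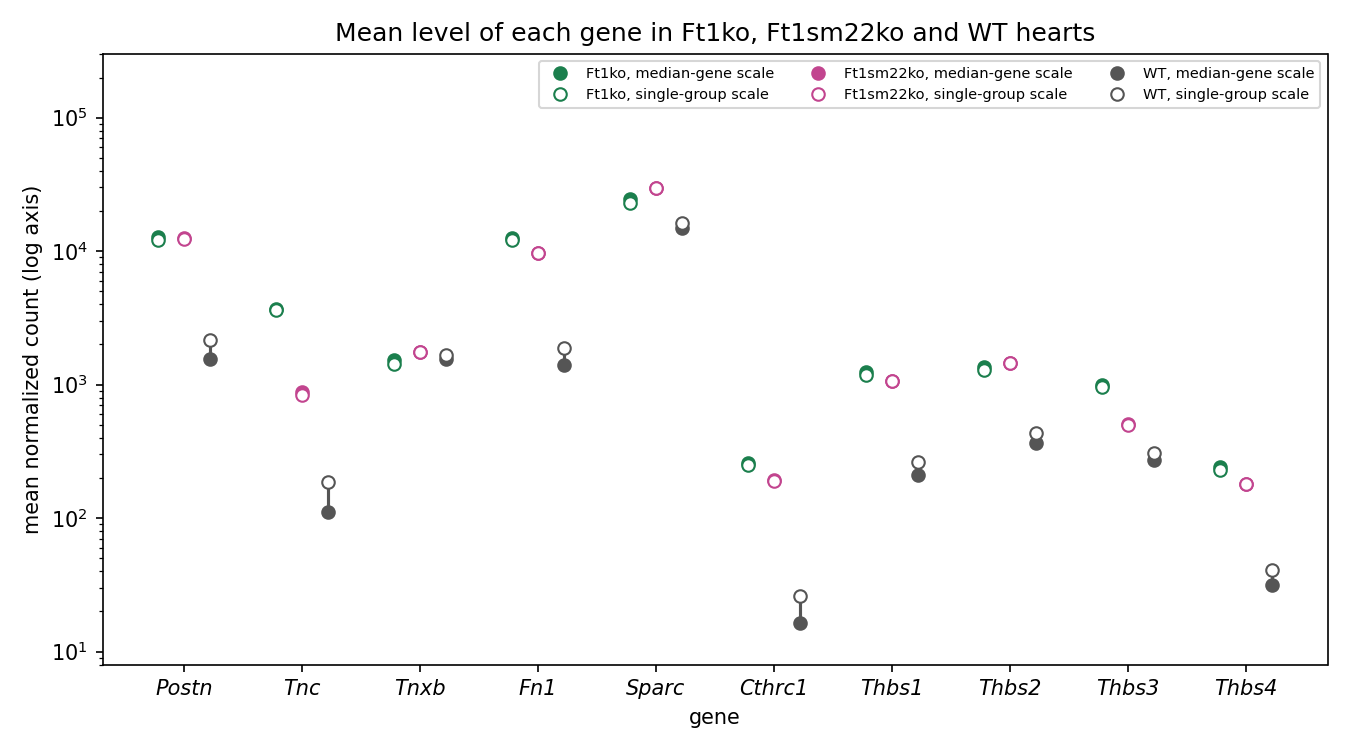
Mean normalized count (log axis) of each gene in Ft1ko (green), Ft1sm22ko (pink) and WT hearts (grey), with filled points for the median-gene scale, open points for the single-group scale and a line between the 2. The WT points lie below both mutants for every gene but Tnxb, and Tnc has its Ft1ko point at 3697, well above its Ft1sm22ko point at 876.2.

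Promoters from RefSeq (build GRCm38.p6, 250 bases before to 50 bases after the start) were matched for 7 of the 10 genes: Postn, Tnc, Tnxb, Sparc, Thbs2, Thbs3 and Thbs4. For Fn1, Thbs1 and Cthrc1 none is shown. The 4 below are shown because they belong to the genes whose patterns differed most: Postn, high to the same degree in both mutants, Tnc and Thbs3, with more transcript in Ft1ko, and Tnxb, with little difference from WT. They are Postn at chr3:54360857-54361156 on the plus strand, Tnc at chr4:64046966-64047265 on the minus strand, Thbs3 at chr3:89214930-89215229 on the plus strand and Tnxb at chr17:34670285-34670584 on the plus strand. Each reads 5′ to 3′ along the gene, and capitals mark matches on either strand to 5 motifs. These are the TATA box, searched as TATAAA, the GC box, searched as GGGCGG, the AP-1 motif, searched as TGAGTCA, the TEAD motif, searched as GGAATG, and the CArG box.
Postn: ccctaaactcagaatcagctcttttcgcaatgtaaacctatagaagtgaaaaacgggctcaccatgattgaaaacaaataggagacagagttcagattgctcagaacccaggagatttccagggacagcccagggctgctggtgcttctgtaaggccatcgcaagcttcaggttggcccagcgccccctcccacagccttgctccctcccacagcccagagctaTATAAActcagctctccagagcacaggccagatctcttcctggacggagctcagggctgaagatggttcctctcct
Tnc: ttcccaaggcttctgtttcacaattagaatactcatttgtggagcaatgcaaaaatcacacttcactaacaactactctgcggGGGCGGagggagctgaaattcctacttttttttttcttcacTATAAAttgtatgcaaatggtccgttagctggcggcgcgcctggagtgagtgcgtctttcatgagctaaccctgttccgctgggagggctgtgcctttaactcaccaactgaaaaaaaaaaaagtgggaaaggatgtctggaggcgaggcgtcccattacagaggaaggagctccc
Thbs3: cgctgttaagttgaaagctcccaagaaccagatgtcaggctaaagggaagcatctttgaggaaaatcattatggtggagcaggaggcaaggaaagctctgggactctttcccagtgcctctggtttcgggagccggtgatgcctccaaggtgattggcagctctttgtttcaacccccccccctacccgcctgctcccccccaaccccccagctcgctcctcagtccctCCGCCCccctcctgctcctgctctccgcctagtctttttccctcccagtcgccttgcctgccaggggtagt
Tnxb: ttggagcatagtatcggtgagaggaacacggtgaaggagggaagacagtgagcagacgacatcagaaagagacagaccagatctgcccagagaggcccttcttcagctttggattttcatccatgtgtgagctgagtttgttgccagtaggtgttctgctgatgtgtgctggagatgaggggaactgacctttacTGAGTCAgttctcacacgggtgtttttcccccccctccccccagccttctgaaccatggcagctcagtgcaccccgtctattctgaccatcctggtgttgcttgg
The Postn match is a TATA box, with its first base at -26 from the start. Tnc holds a GC box from -167 and a TATA box from -126, Thbs3 a GC box on the opposite strand from -21, and Tnxb an AP-1 motif from -55. No 2 of these matches overlap. Of 32851 promoters of the same length 13.6% held the TATA box, 35.7% the GC box, 5.20% the AP-1 motif, 14.7% the TEAD motif and 1.63% the CArG box as searched. The motifs matched in the 4 promoters thus range from the AP-1 motif, in 5.20% of promoters, to the GC box, in 35.7%. A match is only a match of letters.

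Postn encodes periostin, a fasciclin domain protein of cardiac fibroblasts and valve cells that promotes collagen crosslinking. Its deposited mean was 7116 over Ft1ko and WT hearts, 10730 over Ft1sm22ko and WT hearts and 26658 over Ft1sm22ko and Ft1ko hearts. The table without WT hearts thus had the highest mean, also against the median gene: its value was 3.75 times that of the Ft1ko and WT table, where the median gene stood at 2.15 times, and 98.5% of genes had a smaller ratio. Solved per genotype, Postn had 12679 normalized counts in Ft1ko, 12506 in Ft1sm22ko and 1552 in WT hearts (12087, 12411 and 2144 on the single-group scale). The mutants were 8.17-fold and 8.06-fold above WT on the median-gene scale and 5.64-fold and 5.79-fold above WT on the single-group scale, in the order Ft1ko, Ft1sm22ko. Over the 8 scales tried these ratios ran from 4.65 to 8.17 and from 4.97 to 8.06. Between the mutants the ratio was 0.986 for Ft1sm22ko over Ft1ko, and it stayed between 0.972 and 1.07 over the 8 scales tried, so here the scale decides which mutant was higher.

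Tnc encodes tenascin-C, a hexameric glycoprotein that loosens cell adhesion and is made at sites of growth and injury. Its deposited mean was 1904 over Ft1ko and WT hearts and only 752.8 over Ft1sm22ko and WT hearts, although the median gene was 1.34 times as high in the second of these tables. The ratio of 0.395 was among the lowest, with 1.80% of genes below it. Over Ft1sm22ko and Ft1ko hearts the mean was 4418. The solved level was 3697 in Ft1ko, 876.2 in Ft1sm22ko and 110.6 in WT hearts (3621, 843.7 and 186.4 on the single-group scale). Tnc was therefore the gene of the 10 with the largest Ft1ko ratio to WT, 33.4-fold (19.4-fold on the single-group scale). In Ft1sm22ko over WT the ratio was 7.92-fold (4.53-fold). Neither WT-based ratio is firm in size, since the WT level follows the scale: over the 8 scales they ran between 16.1 and 34.6 and between 3.80 and 8.30. The ratio between the mutants hardly moved, from 0.224 to 0.241 for Ft1sm22ko over Ft1ko.

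Tnxb encodes tenascin-X, a fibroblast protein that binds collagen fibrils and whose loss in people causes a form of Ehlers-Danlos syndrome. Its deposited mean was 1541 over Ft1ko and WT hearts, 2305 over Ft1sm22ko and WT hearts and 3520 over Ft1sm22ko and Ft1ko hearts. Solved levels were 1522 in Ft1ko, 1766 in Ft1sm22ko and 1561 in WT hearts (1424, 1768 and 1658 on the single-group scale). The ratios to WT were 0.975 for Ft1ko and 1.13 for Ft1sm22ko (0.859 and 1.07). Tnxb was thus close to the median gene in both mutants, with 42.9% and 54.6% of all genes below its ratios. The other tenascins, Tnr and Tnn, were scarce. Tnr, a nervous system tenascin, had 1.90, 4.13 and 4.75 normalized counts in Ft1ko, Ft1sm22ko and WT hearts. Tnn, tenascin-W, known from bone and tumour stroma, had 14.2, 1.57 and 2.03 in the same order, so it too was higher in Ft1ko than in Ft1sm22ko, at very low levels.

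Fn1 encodes fibronectin. Its deposited mean was 7016 over Ft1ko and WT hearts, 8479 over Ft1sm22ko and WT hearts and 23288 over Ft1sm22ko and Ft1ko hearts. The solved level was 12636 in Ft1ko, 9756 in Ft1sm22ko and 1395 in WT hearts (12138, 9658 and 1893 on the single-group scale). Both mutants stood well above WT, by 9.05-fold in Ft1ko and 6.99-fold in Ft1sm22ko (6.41-fold and 5.10-fold), and over the 8 scales by 5.38-fold to 9.05-fold and 4.44-fold to 7.0-fold. The Ft1sm22ko level was somewhat below that of Ft1ko, at a ratio of 0.772 that ran from 0.760 to 0.824 over the scales.

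Sparc encodes osteonectin, a collagen-binding protein needed for processing of procollagen, and Cthrc1 a secreted glycoprotein of activated fibroblasts. Sparc was abundant everywhere, with deposited means of 19772 over Ft1ko and WT hearts, 32296 over Ft1sm22ko and WT hearts and 58674 over Ft1sm22ko and Ft1ko hearts. Solved levels were 24645 in Ft1ko, 29973 in Ft1sm22ko and 14899 in WT hearts (23156, 29904 and 16389 on the single-group scale). Its ratio to WT was 1.65 in Ft1ko, the smallest there after Tnxb, and 2.01 in Ft1sm22ko (1.41 and 1.82), so the 2-fold mark was met in Ft1sm22ko on the median-gene scale and missed on the single-group scale. Cthrc1 lay at the other end. Its deposited means were 138.2 over Ft1ko and WT hearts, 160.5 over Ft1sm22ko and WT hearts and 469.0 over Ft1sm22ko and Ft1ko hearts. Solved levels were 260.1 in Ft1ko, 192.2 in Ft1sm22ko and 16.4 in WT hearts (250.3, 190.1 and 26.2 on the single-group scale). The ratio to WT was 15.9 in Ft1ko and 11.8 in Ft1sm22ko (9.57 and 7.27), the second largest and the largest of the 10 genes. As for Tnc, the WT level was low, and over the 8 scales the ratios ran between 7.62 and 15.9 and between 5.98 and 11.8.

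The thrombospondins fall into trimers, Thbs1 and Thbs2, which hold the domain that blocks vessel growth, and pentamers, Thbs3, Thbs4 and Comp. Thbs1, which can activate latent Tgf beta, had deposited means of 725.8 over Ft1ko and WT hearts, 962.7 over Ft1sm22ko and WT hearts and 2419 over Ft1sm22ko and Ft1ko hearts. Its level was 1240 in Ft1ko, 1068 in Ft1sm22ko and 211.6 in WT hearts (1187, 1059 and 265.0 on the single-group scale). The mutants were 5.86-fold and 5.05-fold above WT (4.48-fold and 4.0-fold), Ft1ko first, with 3.86-fold as the lowest of the 8 scales in Ft1ko. Thbs2, which lacks the sequence that activates Tgf beta, had deposited means of 861.2 over Ft1ko and WT hearts, 1364 over Ft1sm22ko and WT hearts and 3005 over Ft1sm22ko and Ft1ko hearts. Its level was 1357 in Ft1ko, 1464 in Ft1sm22ko and 365.4 in WT hearts (1287, 1456 and 435.4). The ratios to WT were 3.71 in Ft1ko and 4.01 in Ft1sm22ko (2.96 and 3.34), and Ft1sm22ko over Ft1ko was 1.08 for Thbs2 and 0.861 for Thbs1.

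Thbs4, a thrombospondin of tendon and of the overloaded heart that acts within the secretory pathway, had deposited means of 135.9 over Ft1ko and WT hearts, 160.9 over Ft1sm22ko and WT hearts and 438.1 over Ft1sm22ko and Ft1ko hearts. Its level was 240.5 in Ft1ko, 181.5 in Ft1sm22ko and 31.3 in WT hearts (231.1, 179.7 and 40.7 on the single-group scale), 7.69-fold and 5.80-fold above WT (5.68-fold and 4.42-fold), with 4.85-fold as the lowest of the 8 scales in Ft1ko. Comp, the cartilage oligomeric matrix protein, was likewise above WT, with 112.4, 130.7 and 20.7 normalized counts in Ft1ko, Ft1sm22ko and WT hearts. Between the mutants the 2 genes differed, with Ft1sm22ko over Ft1ko at 1.16 for Comp and 0.755 for Thbs4. Thbs3, which in mouse hearts affects the placing of integrins at the cell surface, differed from the other thrombospondins. Its deposited means were 634.5 over Ft1ko and WT hearts, 559.3 over Ft1sm22ko and WT hearts and 1520 over Ft1sm22ko and Ft1ko hearts. Its level was 996.1 in Ft1ko, 507.9 in Ft1sm22ko and 273.0 in WT hearts (963.5, 501.6 and 305.6), so Ft1ko was 3.65-fold and Ft1sm22ko 1.86-fold above WT (3.15-fold and 1.64-fold). For Ft1sm22ko over Ft1ko the ratio of 0.510 sat at the 2-fold mark, between 0.494 and 0.541 over the 8 scales. The whole of Thbs3 lies within Mtx1, a mitochondrial import gene on the opposite strand, and how strand was treated in counting is not given in the sources used here. Mtx1 had 291.8, 232.3 and 402.9 normalized counts in Ft1ko, Ft1sm22ko and WT hearts, with its highest level in WT, where Thbs3 had its lowest. Tnc is likewise covered over 77.0% of its span by the opposite-strand transcript 8030451A03Rik, for which no value was used here, Thbs1 over 3.91% by Gm29233 and Fn1 over 0.538% by Apol7d, both also on the opposite strand.

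**Figure D2:**
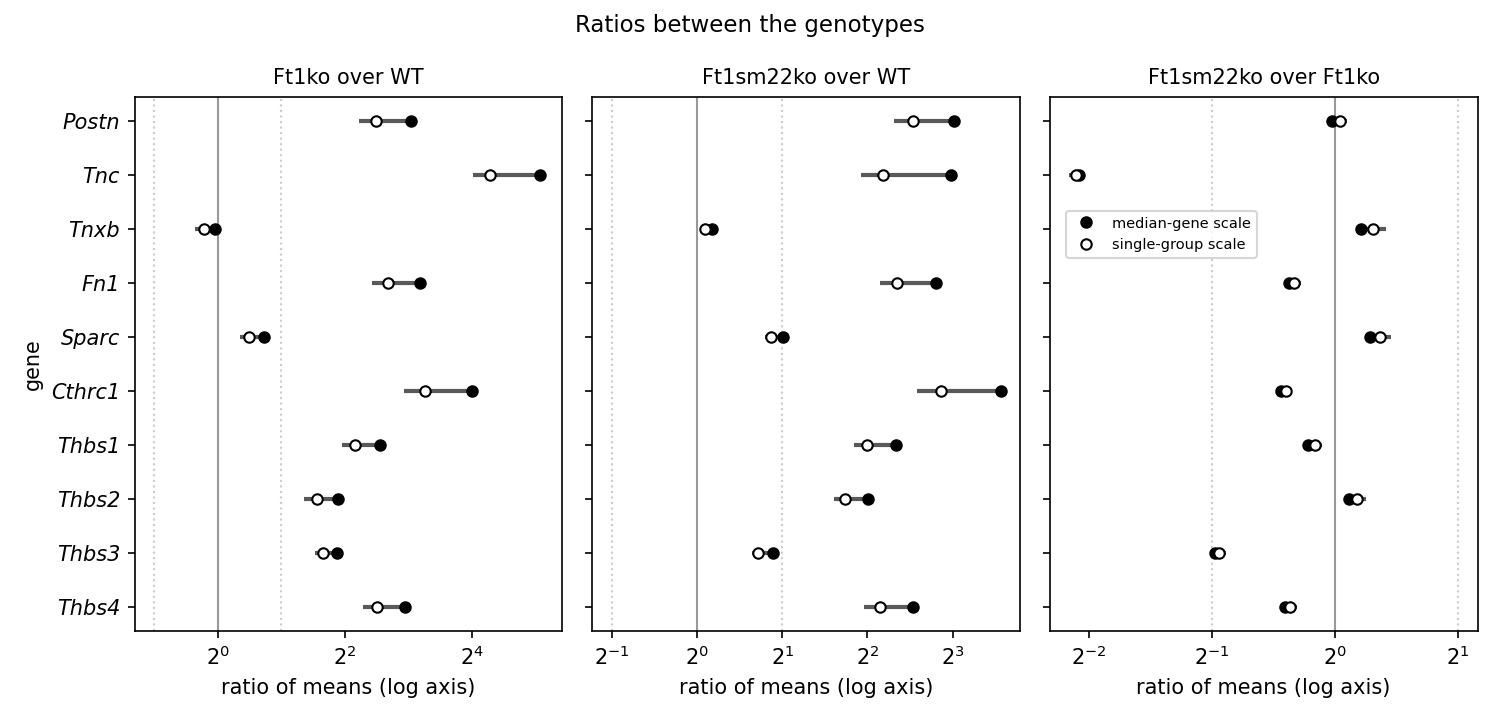
Ratio of mean levels (log axis) of each mutant over WT (left and middle) and of Ft1sm22ko over Ft1ko (right). Filled points are the median-gene scale, open points the single-group scale, grey bars the lowest to highest of 8 scales and dotted lines the 2-fold marks. Only Tnc lies wholly beyond a dotted line in Ft1sm22ko over Ft1ko, and Thbs3 sits on it at 0.510.

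Set per kilobase of exon, so that genes can be compared, Sparc had the highest level in every genotype, 6506 in Ft1ko, 7913 in Ft1sm22ko and 3933 in WT hearts on the median-gene scale. Postn was next, with 1457, 1437 and 178.4, then Fn1, with 1081, 834.9 and 119.4. In WT hearts Tnxb, at 127.9, stood between Postn and Fn1, and Tnc, at 14.2, was below all thrombospondins but Thbs4. On the single-group scale Fn1, at 162.0, was above Tnxb, at 135.8, in WT hearts, so these 2 cannot be ranked. In Ft1ko hearts Tnc, at 475.7, had moved to the fourth place, above each thrombospondin, and Tnxb, at 124.6, was above Thbs4 only. Thbs4 was the lowest of the 10 in all 3 genotypes, with 73.1, 55.2 and 9.51. The sum of the normalized counts of the 10 genes was 59272 in Ft1ko, 58291 in Ft1sm22ko and 20416 in WT hearts, near equal in the mutants. Sparc made up the largest part, with 24645, 29973 and 14899. It was higher in Ft1sm22ko than in Ft1ko, while Fn1 and Tnc were lower, so the equal sums do not hold gene by gene.

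Among 22 other matricellular genes, 15 were 2-fold higher and 1 was 2-fold lower in Ft1ko than in WT, and 14 were higher and 1 lower in Ft1sm22ko than in WT. Their median log2 ratios were 1.66 and 1.47, beside 0.13 and 0.07 for all genes (1.38 and 1.15 on the single-group scale). The counts stand beside 22.8% of all genes higher and 13.8% lower in Ft1ko over WT, and 16.6% higher and 10.3% lower in Ft1sm22ko over WT. On the single-group scale 15 were higher and 3 lower in Ft1ko, and 12 were higher and 1 lower in Ft1sm22ko. Bgn, the proteoglycan biglycan, was 3.95-fold and 2.74-fold above WT, and Fstl1, a follistatin-like glycoprotein, 2.98-fold and 3.43-fold, in Ft1ko and Ft1sm22ko. Tgfbi, the nearest paralog of Postn, behaved like Tnc instead. It had 2782 normalized counts in Ft1ko, 548.7 in Ft1sm22ko and 195.0 in WT hearts, and the ratio of Ft1sm22ko over Ft1ko was 0.197. Sparcl1, the paralog of Sparc, had 3642, 7243 and 3431, with its higher level in Ft1sm22ko.

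Of 18 genes of fibronectin and matrix assembly 15 were 2-fold higher than WT in each mutant and 0 were lower (14 in Ft1ko and 13 in Ft1sm22ko on the single-group scale). Eln, elastin, was 14.9-fold and Col3a1, a fibrillar collagen, 4.26-fold above WT in Ft1ko, against 6.05-fold and 4.88-fold in Ft1sm22ko. Of 21 receptors 7 were higher and 2 lower in Ft1ko over WT, and 6 were higher and 1 lower in Ft1sm22ko over WT (7 and 2, and 5 and 2, on the single-group scale). Itgb1, the integrin chain shared by most receptors of these proteins, was 1.85-fold and 1.87-fold above WT in Ft1ko and Ft1sm22ko, and Cd36, a receptor of Thbs1 and of fatty acids, was at 0.459 and 1.16 of the WT level. These counts stand beside 22.8% of all genes higher and 13.8% lower in Ft1ko, and 16.6% higher and 10.3% lower in Ft1sm22ko. On the single-group scale 19.2% and 13.1% of all genes were higher, and no list was tested. Itga4, a fibronectin and Thbs receptor chain, chosen after its values were seen, was at 0.184 in Ft1sm22ko over Ft1ko.

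Of 14 genes of Tgf beta signalling 7 were 2-fold higher and 0 lower in each mutant than in WT (6 in Ft1ko and 5 in Ft1sm22ko on the single-group scale). The 2 with the highest means, Ltbp4 and Ltbp3, which store latent Tgf beta in the matrix, were not among them: Ltbp4 was at 1.00 in Ft1ko and 1.13 in Ft1sm22ko, and Ltbp3 at 1.91 and 1.23. Of 13 proteases with values that can cut these proteins, 6 were higher and 3 lower in Ft1ko over WT and 4 higher and 1 lower in Ft1sm22ko over WT (5 and 3, and 4 and 1, on the single-group scale). For both lists the shares of all genes are the same 22.8% and 13.8% in Ft1ko and 16.6% and 10.3% in Ft1sm22ko, and with so few genes no difference from them is read. Mmp14, a membrane-bound collagenase, was 3.22-fold and 2.55-fold above WT in Ft1ko and Ft1sm22ko, and Ctsb, a lysosomal protease, was at 0.841 and 1.00.

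Markers of several tissues moved with the genotypes, and their part in the ratios above was not tested. In bulk tissue fewer cells of a type and less RNA per cell cannot be told apart. Cardiomyocyte markers (4 of 4 measured) summed to 191270 in Ft1ko, 374214 in Ft1sm22ko and 1075726 in WT hearts on the single-group scale. Fibroblast markers (6 of 6) summed to 36550, 38510 and 14842, but Col1a1 made up most of that sum. The 5 others summed to 10242, 16875 and 8637, a ratio to WT of 1.19 in Ft1ko and 1.95 in Ft1sm22ko. Tcf21 was at 3.58 and 3.83 times WT in Ft1ko and Ft1sm22ko, Pdgfra at 1.20 and 1.63 times and Dcn at 0.787 and 1.63 times, so the list did not move as one. The activated fibroblast markers (4 of 4) summed to 7398, 8374 and 9524, a sum carried by Acta2, which smooth muscle also makes. The 3 others summed to 534.1, 921.1 and 590.3, and this list did not move as one either. Comp was at 3.99 and 4.87 times WT in Ft1ko and Ft1sm22ko, but Fap was at 0.699 and 1.01 times. Meox1 was at 0.781 and 1.55 times and Acta2 at 0.768 and 0.834 times. Epicardial and mesothelial markers (4 of 4) summed to 2382, 2955 and 527.3 and valve and endocardial markers (4 of 4) to 2350, 2415 and 678.1. Both sums were higher in both mutants, as were the levels of the 10 genes other than Tnxb, although Wt1 of the epicardial set was at 0.788 of WT in Ft1ko. Npr3, with 1602, 1770 and 269.2, made up most of the valve sum in the mutants. Nfatc1 of that set was at only 1.67 and 1.25 times WT in Ft1ko and Ft1sm22ko. Endothelial markers (4 of 4) differed little in sum, with 11277, 14265 and 12874, but not gene by gene. Tie1 was at 0.523 and 0.612 times WT in Ft1ko and Ft1sm22ko, and Kdr at 0.938 and 1.43 times. Pecam1 was at 1.06 and 1.18 times and Cdh5 at 0.961 and 1.27 times.

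The atrium and the lung stood out further. Of 5 atrial genes listed after the values were seen, Myl7, Sln, Myl4, Bmp10 and Nppa, all 5 had a WT level at or below 0 on the median-gene scale. On the single-group scale they summed to 51699 in Ft1ko, 52087 in Ft1sm22ko and 1376 in WT hearts. Myl7, the atrial myosin light chain, had 18650, 12179 and 187.7. Lung epithelium markers (6 of 6) summed to 47676 in Ft1ko, 2766 in Ft1sm22ko and 554.1 in WT hearts, and Sftpc, a surfactant protein, alone had 26501, 189.5 and 136.2. Scgb1a1, with 2349, made up most of the Ft1sm22ko sum. Of the 6 markers 4 were 2-fold higher in Ft1sm22ko than in WT, against 13.1% of all genes, and 1, Ager, was lower, with 42.7 against 240.4. Some of these WT levels were very low, such as 2.07 for Sftpd and 6.79 for Sftpa1. Surfactant proteins are made by alveolar cells of the lung. Tnc and Thbs3, with more transcript in Ft1ko than in Ft1sm22ko, thus went in the same direction as the lung markers. Thbs1, Fn1, Thbs4 and Cthrc1 were nearer to 1, at 0.861, 0.772, 0.755 and 0.739 for Ft1sm22ko over Ft1ko on the median-gene scale. Of all genes 38.6%, 28.3%, 26.7% and 25.3% had a smaller ratio, so these values were ordinary. The lung markers ran from 0.0163 to 0.283 on that scale. Postn was at 0.986, and Sparc, Tnxb and Thbs2 went the other way, at 1.22, 1.16 and 1.08. Cartilage markers also had more transcript in Ft1ko, with 143.1, 39.7 and 25.8 for the 2 measured. Smooth muscle markers, of the cell type targeted in Ft1sm22ko, had more transcript in Ft1ko as well in 3 of 4 genes. On the median-gene scale Ft1sm22ko over Ft1ko was 0.449 for Tagln, 0.440 for Myh11 and 0.562 for Cnn1, with 1.35 for Smtn. The list summed to 5979 in Ft1ko, 4343 in Ft1sm22ko and 6516 in WT hearts on the single-group scale. Smtn, with 5225, made up most of the WT sum and was at 0.284 and 0.432 times WT in Ft1ko and Ft1sm22ko. The 3 others were above WT on that scale. Tagln was at 3.94 and 1.80 times WT, Cnn1 at 17.3 and 9.87 times and Myh11 at 2.56 and 1.15 times. Whether the tissue sampled differed between the genotypes was not tested, and with no values per heart the hearts that carried these transcripts cannot be told apart.

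**Figure D3:**
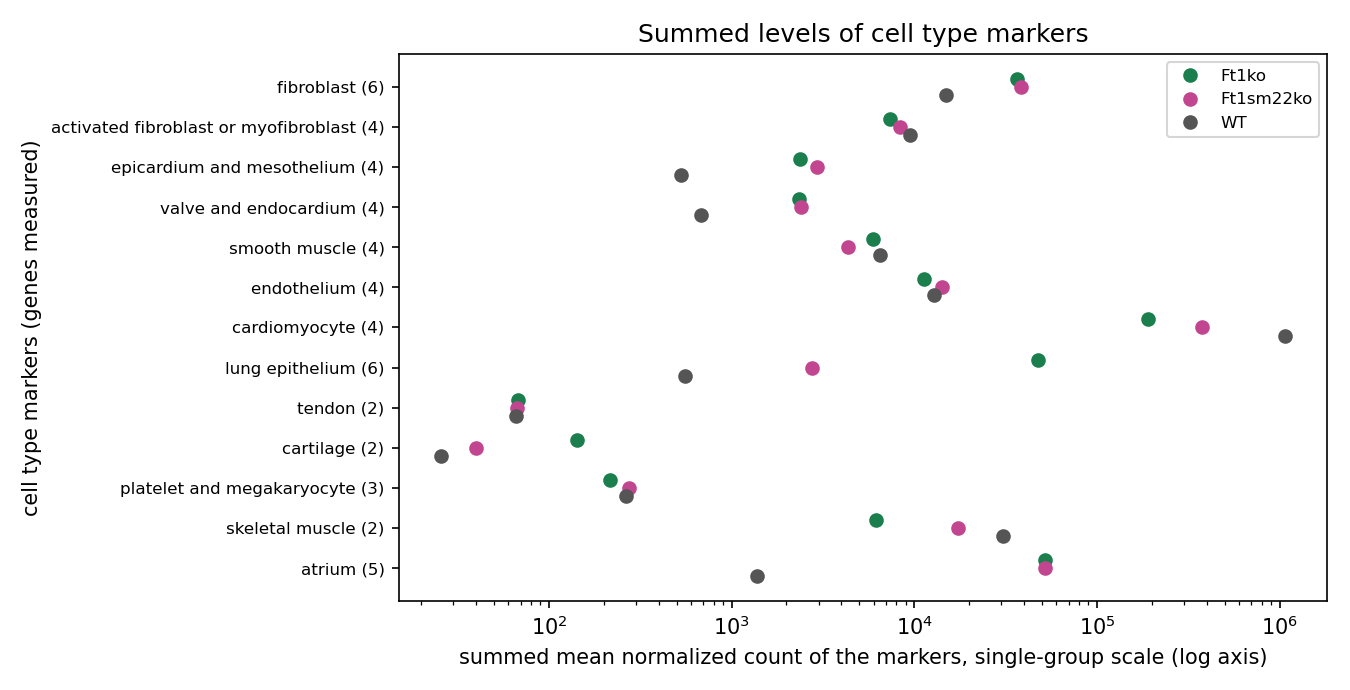
Summed mean normalized counts (log axis, single-group scale) of marker genes of each cell type or tissue in Ft1ko (green), Ft1sm22ko (pink) and WT hearts (grey), with the number of genes measured in brackets. Atrial markers sum to 51699 in Ft1ko and 52087 in Ft1sm22ko against 1376 in WT, and lung epithelium markers to 47676 in Ft1ko against 2766 in Ft1sm22ko.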

How the data were processed

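RNA was extracted with TRIzol from cardiac tissue of 10 mice and libraries were made with a poly(A) kit of type fr-secondstrand. The authors aligned reads with STAR to a reference named hg38, although the gene names are mouse symbols, counted them with HTSeq and fitted DESeq2 to each pair of genotypes. The submitters' processing notes also name StringTie. The deposited signal used here is a gene's mean, over the hearts of both genotypes, of counts divided by size factors. The other deposited columns hold the authors' own fold changes, errors, statistics and p-values and were not used. Depth per library is unknown, so no counting interval is given.

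Group means were solved from 3 linear equations per gene with Python 3.11.15, pandas 2.3.3 and numpy 2.4.6, tested on simulated data. Solving assumes that 1 factor per table joins the 3 scales. The simulated data held more genes found in 1 genotype alone than these data, and most changes were centred on no change. They therefore cannot show whether either scale holds here. The scale planned first needed 20 genes found in 1 genotype alone (mean of at least 10, at most 1% in the table without it) for each genotype. With 15, 1 and 3 for Ft1ko, Ft1sm22ko and WT, the planned fallback was the median-gene scale, over 9773 genes with a mean of at least 100. Its factors were 1.374 and 2.119, and those of the single-group scale 1.339 and 2.172. A gene was called at 2-fold. No test was made, since the means used hold no spread between hearts. Alternatives were the median ratio of tables, a 1.5-fold mark, no filter, a wider list of single-group genes (10%, mean of at least 5) and 4 combinations of the single-group factors. These joined the lowest or highest WT factor, 1.301 or 1.394, with the lower or upper quartile of the Ft1ko factors, 2.153 or 2.188. The wider limit of 3% and the minimum mean of 50 planned for the single-group genes were not run, since the main scale did not rest on these genes. The 10 genes and the lists were chosen with earlier results of these data known. Genes named were the 10, the paralogs Comp, Tnr, Tnn, Tgfbi and Sparcl1, Aktip, and the 2 genes of the highest mean in each related list. Others, among them those of the marker lists singled out, were chosen after their values were seen. Exon lengths and overlaps came from GENCODE M21.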

Additional observations from a re-analysis of the deposited data

How the results depend on the processing

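No paired analysis was possible because no values per heart were used. The count of genes past 2-fold between the mutants was 1 and became 2, with Thbs3 added, at a 1.5-fold mark. Of all genes 30.7% passed that lower mark between the mutants, in either direction. At 2-fold the count was 1 to 2 over the 8 scales, the 4 combinations of single-group factors included. The counts against WT were 8 in Ft1ko and 7 to 8 in Ft1sm22ko over those scales, and 9 in each at the 1.5-fold mark. That mark was passed, in either direction, by 57.5% of all genes in Ft1ko over WT and 49.1% in Ft1sm22ko over WT. Of the 30 ratios of the 10 genes, 26 moved by less than 1.5 times on the single-group scale. Postn in Ft1sm22ko over Ft1ko, which was not past 2-fold, was the 1 ratio that lay on both sides of 1. The 4 that moved were Tnc and Cthrc1 over WT: in Ft1ko over WT they were 19.4 and 9.57, in Ft1sm22ko over WT 4.53 and 7.27. With a wider list of single-group genes they were 18.3 and 9.73, and 4.12 and 7.21. Over all 8 scales 10 ratios ranged by over 1.5 times. Beside those of Tnc and Cthrc1 these were, in Ft1ko over WT, Postn, from 4.65 to 8.17, Fn1, from 5.38 to 9.05, Thbs1, from 3.86 to 5.86, and Thbs4, from 4.85 to 7.69. In Ft1sm22ko over WT they were Postn, from 4.97 to 8.06, and Fn1, from 4.44 to 7.0. The single-group scale rests on few genes. The 15 genes of Ft1ko gave factors from 2.037 to 2.217, the 3 of WT from 1.301 to 1.394, and the 1 gene of Ft1sm22ko gave 1.635, where the other 2 factors lead to 1.622. If 1 heart carried most of those transcripts, the factor is that of this heart. The 4 combinations took the quartiles of the Ft1ko factors, 2.153 and 2.188, not their lowest and highest. The ranges over the 8 scales therefore do not cover the full spread of the single-group factors.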

Other observations

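The genes found in 1 genotype alone named tissues other than heart. The 15 genes of Ft1ko included Foxn1 and Aire, regulators of thymic epithelium, Psmb11 and Prss16, a proteasome subunit and a protease of the thymic cortex, and Ptcra, the pre-T cell receptor chain. The 3 genes of WT were Kap and Slc12a1, both known from kidney, and Krt13, a keratin of stratified epithelium. All were chosen after their values were seen, and their source was not tested.

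Beyond the 10 genes, some partners shared the higher level in Ft1ko over Ft1sm22ko that Tnc had. Ltbp2, a matrix protein of elastic fibres, was at 0.134 for Ft1sm22ko over Ft1ko, and Mmp9, a gelatinase, at 0.156 on the median-gene scale. Both were picked for these values.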
